A study of Mus musculus with 20 samples.

Results

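Long non-coding RNAs are transcripts longer than the small RNA classes that are not known to be translated. Some stay in the nucleus and act on chromatin or build nuclear bodies, such as Xist, Malat1 and Neat1. Others are spliced host transcripts from whose introns or exons small nucleolar RNAs or microRNAs are cut, and many more lie beside or opposite a coding gene and have no known role. Most are scarce, so few can be followed reliably in bulk tissue. The 109 described here are those of the 6066 long non-coding RNAs, in a table of 35841 genes, whose mean over all libraries was at least 3 FPKM, the number of sequenced fragments scaled to transcript length and library size, leaving out 1 imprinted gene. The members were chosen by this mean level, so the levels below are a description. Just inside this limit lay 4932422M17Rik, 4921531C22Rik and Gm42047, at 3.08, 3.07 and 3.02 FPKM, and just outside it Gm28156, Gm11266 and CT009718.4, at 2.96, 2.96 and 2.95 FPKM.

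The libraries were made from the inguinal subcutaneous fat of 20 female C57BL/6 mice, 1 library per mouse, all 8 weeks old, with no treatment or genetic change named in the labels. Vaginal cytology assigned 5 mice each to proestrus, estrus, metestrus and diestrus, the successive stages of the estrous cycle. The depth of each library is not known from FPKM, so no counting interval was computed. Adipocyte genes were high in every library, at a sum of 3252 to 6046 FPKM over 8 markers, among them Adipoq and Plin1. The pad also holds a lymph node, and the 10 B cell markers summed to 1.31 to 369 FPKM and the 14 T cell markers to 2.82 to 244 FPKM across libraries. Metestrus-3 stood apart by 5 skeletal muscle genes, at a sum of 4982 FPKM, against at most 235 FPKM in any other library. Proestrus-2 was, by the study's supplement, taken from another stored portion of the same animal's tissue, because the first portion gave RNA of too low quality. In bulk RNA, fewer cells of a type and less RNA per cell cannot be told apart.

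Most long non-coding RNAs in this fat were near the detection limit, since 93.8% of the 6066 averaged under 1 FPKM. All 109 members were above 0 in every library, and 93 of them reached 1 FPKM in each. Their means had a median of 5.06 FPKM, with 57 members at 5 FPKM or more, 25 at 10 FPKM or more and 3 at 100 FPKM or more. In the GENCODE M21 annotation of GRCm38, 40 are intergenic, 35 antisense to another gene, 26 processed transcripts, 6 from bidirectional promoters and 2 within an intron on the sense strand. A single exon block made up 29.4% of the members, against 11.2% of 5948 other annotated long non-coding RNAs, and median exonic length was 1685 against 1257.5 bases. For 64 of the 109, an exon overlaps that of another gene on either strand. Whether the counting used strand is not given in the sources used here, so reads of these overlapping genes cannot be assigned with certainty.

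The 12 most abundant members were AY036118, Gm10076, Gm42418, AW112010, Malat1, 2410006H16Rik, 2900097C17Rik, Xist, Gm454, 1700020I14Rik, Ifi30 and Snhg8. The first of them stood far above the rest at 1725 ± 1390 FPKM (SD, n = 20), followed by Gm10076 at 304.5 ± 62.2 FPKM and Gm42418 at 118 ± 45.9 FPKM. AY036118 (chr17:39847113-39848035, minus strand) lies wholly inside Gm42418 (chr17:39846958-39848788, plus strand), and both overlap a ribosomal RNA gene of the annotation, CT010467.1, which averaged 610 FPKM. AY036118 was at 7254, 1441, 900, 851 and 1940 FPKM in proestrus, at 884 to 1663 FPKM in estrus, at 1213 to 2995 FPKM in metestrus and at 1079 to 1847 FPKM in diestrus. The highest library of all was proestrus-1, and the second highest was metestrus-3. AY036118, Gm42418 and their neighbour Gm26917 together took 42.5% to 82.8% of the FPKM of all members in a library. The members' share of a library's FPKM was 0.93 ± 0.68% in proestrus, 0.68 ± 0.11% in estrus, 0.77 ± 0.21% in metestrus and 0.68 ± 0.08% in diestrus (SD, n = 5 each). Without these 3 genes it was 0.24% to 0.42% in every library.

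**Figure D1:**
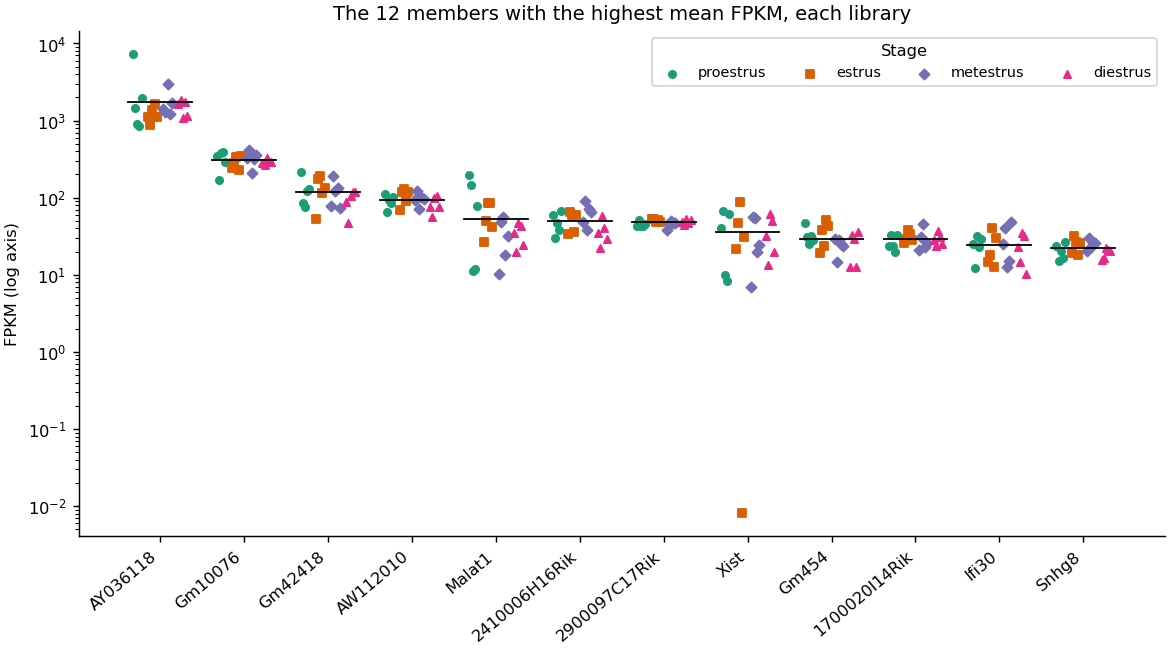
The 12 members with the highest mean level. Each point is the FPKM of 1 library on a log axis, coloured by stage, and each black line is the mean of 20 libraries. AY036118 in proestrus-1 lies above all other points at 7254 FPKM, 2900097C17Rik varies least, and Xist in estrus-4 is near 0 at 0.0081 FPKM.

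Gm10076 (chr14:105681828-105682211, plus strand) is a single-exon gene whose transcript is nearly the same as that of Rpl41, which encodes a very small protein of the large ribosomal subunit. Of its 384 bases, 383 align to the main Rpl41 transcript without a gap, with 381 identical bases, an identity of 99.5%. The longest reading frame in Gm10076, 25 codons and a stop, occurs without any change in Rpl41. It is shown in full because no read within it can tell these genes apart:
Gm10076 reading frame: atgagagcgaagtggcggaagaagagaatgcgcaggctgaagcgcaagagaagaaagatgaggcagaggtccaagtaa
There are 2 substitutions, C127T and also G234A, counted from the first base of Gm10076, with the base of Rpl41 first and that of Gm10076 last. Each is set in capitals in the stretches that hold it, which are the places where a read could be told apart:
Gm10076 around base 127: agtaagccagccTgtgcacctacga
Rpl41 around base 127: agtaagccagccCgtgcacctacga
Gm10076 around base 234: tagacctggaacAtcacctcgccgc
Rpl41 around base 234: tagacctggaacGtcacctcgccgc
Gm10076 was at 169 to 409 FPKM and Rpl41 at 85.2 to 185 FPKM across the 20 libraries. The value of Gm10076 is thus uncertain, since a read from either gene could have been given to the other.

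Among the abundant members outside these repeated sequences, the steadiest was 2900097C17Rik, an intergenic RNA on chromosome 2. It was at 38.3 to 53.7 FPKM in the 20 libraries, a range of 1.40-fold. AW112010, an RNA known from activated immune cells, was at 94.1 ± 20.6 FPKM (SD, n = 20), lowest in diestrus-2 at 55.5 FPKM and highest in estrus-3 at 131 FPKM. Ifi30 averaged 24.7 ± 11 FPKM. It carries a long non-coding type in the table, and M21 types it as a processed transcript, but the gene is known to encode a lysosomal thiol reductase that helps antigen presentation. Snhg8, a host of a small nucleolar RNA, was at 14.9 to 31.7 FPKM. Over all 109 members the SD of the log2(FPKM + 1) level had a median of 0.39, against 0.26 over all 13987 genes tested. The most variable by this measure were Xist, Gm2682, Neat1, Malat1 and Gm26532, with SDs of 1.5, 1.41, 1.17, 1.14 and 1.13.

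No member followed the estrous stage past the threshold. Differences were tested with limma on log2(FPKM + 1), with Benjamini-Hochberg adjustment over 13987 genes at 0.05, in an F test across the 4 stages and in the 6 pairs. Of the 109 members, 0 were called in the F test, where 0.736% of all genes were called. Likewise 0 were called in estrus against proestrus (0.143% of all genes), metestrus against estrus (0.222%), diestrus against metestrus (1.24%), proestrus against diestrus (0.0143%), metestrus against proestrus (0.879%) and diestrus against estrus (0% of all genes). At an unadjusted F p under 0.05 there were 15 members (13.8%), against 10.7% of all genes. At an unadjusted p under 0.05 in the pairs, there were 6 members in estrus against proestrus (6.69% of all genes), 10 in metestrus against estrus (8.13% of all genes), 15 in diestrus against metestrus (12.1% of all genes), 8 in proestrus against diestrus (3.96% of all genes), 11 in metestrus against proestrus (10.5% of all genes) and 11 in diestrus against estrus (6.08% of all genes). In 11 members (10.1%) the libraries of some pair of stages did not overlap, against 7.23% of all genes. They were 1 member in estrus against proestrus (0.736% of all genes), 0 in metestrus against estrus (1.67%), 4 in diestrus against metestrus (3.25%), 0 in proestrus against diestrus (0.486%), 5 in metestrus against proestrus (2.51%) and 3 in diestrus against estrus (1.43%). The lymphocyte score, which is defined below, ranged from 0.26 to 3.67 in proestrus, 0.25 to 4.17 in estrus, 0.22 to 3.68 in metestrus and 0.38 to 3.60 in diestrus. The members named next were chosen for their small F p after their values were seen.

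AC154502.3, an intergenic RNA of unknown role (chr13:53635894-53639193, minus strand), had the smallest F p. It was at 4.91, 5.03, 3.36, 4.96 and 4.14 FPKM in estrus, against 12.1, 10.2, 8.29, 8.25 and 9.75 FPKM in proestrus. All estrus libraries lay below all proestrus libraries. The difference was -0.97 ± 0.22 (log2, SE) with a limma adjusted p of 0.154, and it passed without metestrus-3, at an adjusted p of 0.0378. That library is in neither stage, so the difference stayed at -0.97, and only the shared spread and the genes tested changed. Gm28875 (chr12:104925501-104926689, minus strand) was at 4.44, 5.70, 9.84, 4.46 and 5.77 FPKM in metestrus, against 9.44, 13.97, 7.54, 11.8 and 13.7 FPKM in estrus. Only metestrus-3, the library with muscle genes, reached the estrus range. The difference was -0.82 ± 0.20 with a limma adjusted p of 0.109, and without metestrus-3 it was -0.99 with an adjusted p of 0.0309. The part of the muscle tissue in this difference was not tested.

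Several of these members had their largest difference between diestrus and metestrus. B430219N15Rik, antisense to Ginm1, was at 7.77, 4.85, 4.69, 5.44 and 6.73 FPKM in diestrus, against 3.36, 2.52, 4.51, 2.52 and 2.02 FPKM in metestrus. Its groups did not overlap, and the difference of 0.80 ± 0.22 (log2, SE) had the smallest adjusted p of any member in any pair, 0.074 by limma. Ginm1, a membrane protein gene that its exons overlap by 157 bases, differed by -0.0042 in the same pair. AC156572.2 was at 16.4, 7.20, 6.16, 9.49 and 7.23 FPKM in diestrus, against 4.41, 1.93, 2.18, 2.40 and 1.70 FPKM in metestrus. Every diestrus library was higher, by 1.51 ± 0.42 on the log2 scale with a limma adjusted p of 0.084, and the 3 highest of the proestrus libraries, at 8.25, 10.4 and 12.6 FPKM, lay in the diestrus range. The pseudogene Gm7049 lies opposite 70.5% of its exons and differed by 1.90 in this pair, so that the reads may be shared.

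Further members with a small F p differed in mean between metestrus and another stage. Gm43305 was at 5.23, 11.2, 2.87, 5.26 and 14.6 FPKM in metestrus, at 2.78, 0.72, 3.11, 2.59 and 0.73 FPKM in diestrus, and at 0.16 to 5.42 FPKM in the other stages. Metestrus and diestrus overlapped by 1 library, and diestrus minus metestrus was -1.49 ± 0.44 (log2, SE), with a limma adjusted p of 0.11. AC087871.1 was at 14.8, 17.2, 38.0, 43.5 and 19.4 FPKM in metestrus, against 14.6, 13.5, 12.3, 9.80 and 12.8 FPKM in proestrus. Those groups did not overlap, with metestrus minus proestrus at 0.90 ± 0.33 and a limma adjusted p of 0.267. In estrus AC087871.1 was at 18.4, 15.3, 12.1, 32.4 and 12.9 FPKM, which overlaps metestrus. Its highest metestrus libraries, metestrus-3 and metestrus-4, had low lymphocyte scores of 0.25 and 0.22. Zeb2os, antisense to the repressor gene Zeb2, averaged 3.71 ± 0.43 FPKM in diestrus and 2.5 ± 0.60 FPKM in metestrus (SD, n = 5 each) and did not overlap between them. Diestrus minus metestrus was 0.44 (log2) for Zeb2os and 1.01 for Zeb2. Exons of Zeb2 lie opposite 32.8% of those of Zeb2os, so that the reads may be shared. BC051226, which starts 97 bases from the histone chaperone gene Daxx in the opposite direction, averaged 2.70 ± 0.43 FPKM in metestrus and 4.09 ± 0.38 FPKM in proestrus, again without overlap.

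**Figure D2:**
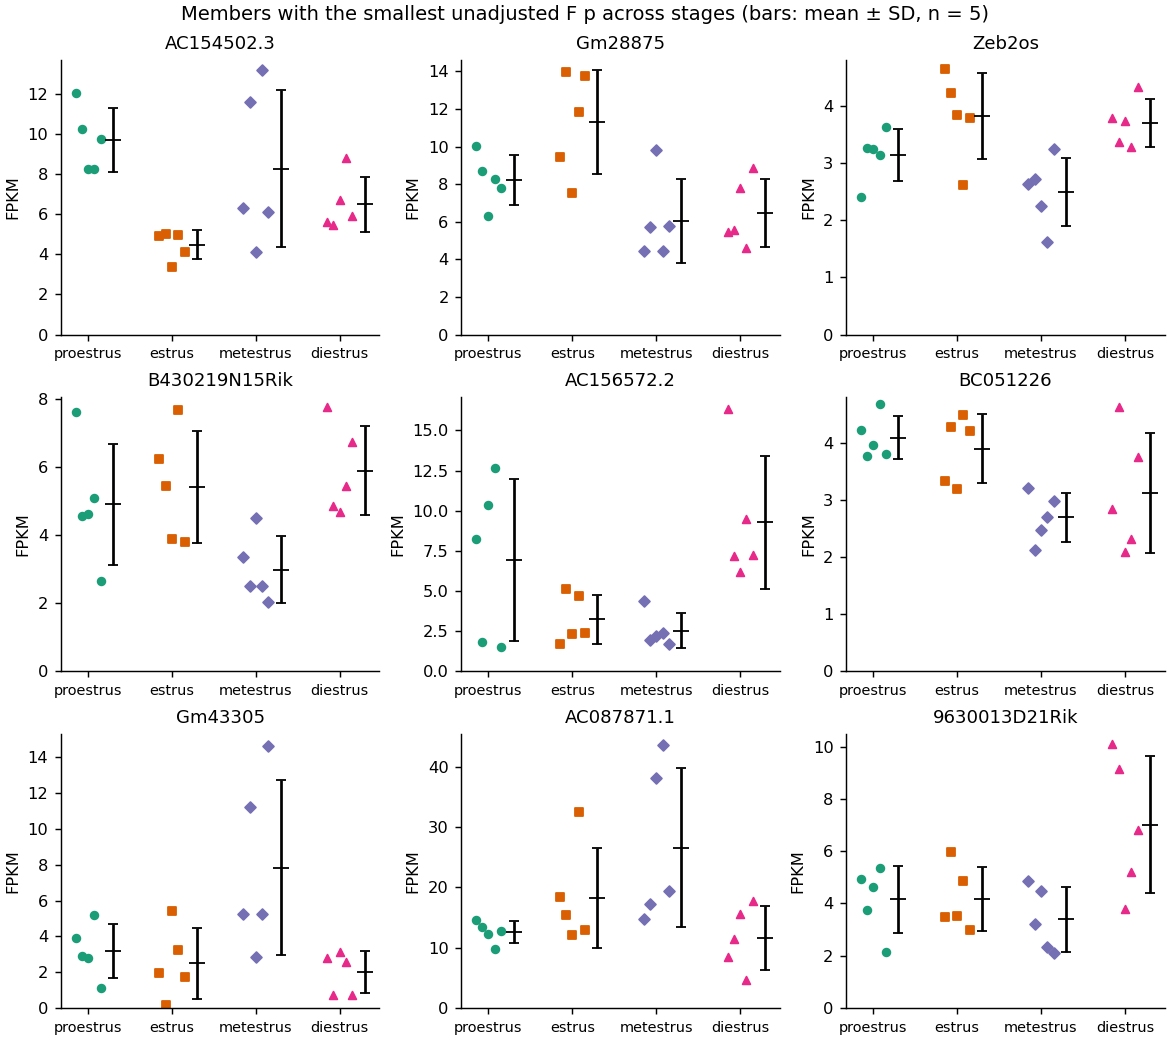
The 9 members with the smallest unadjusted F p. Points are libraries in FPKM by stage, and bars are the mean ± SD of 5 mice. None passed the adjusted threshold. B430219N15Rik averaged 5.90 FPKM in diestrus and 2.98 FPKM in metestrus.

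With the lymphocyte score as a covariate, 5 members passed in diestrus against metestrus (4.59%, against 2.89% of all genes). They were B430219N15Rik (0.85, limma adjusted p = 0.0239), Gm43305 (-1.59, 0.0278), 2410006H16Rik (-0.84, 0.0335), AC087871.1 (-1.04, 0.0398) and Ifi30 (-0.42, 0.0443), each as a log2 difference and its adjusted p. With array weights, which count less typical libraries less, 8 members passed in this pair (7.34%, against 7.4% of all genes), among them AC156572.2 at 1.71 and an adjusted p of 0.0085. Calls rose over all genes under both settings, and with array weights the share of members was near that of all genes.

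The lymphocyte score was the mean log2(FPKM + 1) of 24 protein-coding genes of B and T cells, so no member was in it. It fell into separate sets, with 8 libraries at 0.22 to 1.498 and 12 libraries at 2.21 to 4.17. The lower set held 1 proestrus, 3 estrus, 2 metestrus and 2 diestrus libraries. Beside stage means, 16 members rose with the score (14.7%, against 20.0% of all genes) and 12 fell with it (11%, against 9.36% of all genes). After scaling by median-ratio size factors, 14 rose (12.8%, against 17.1% of all genes) and 16 fell (14.7%, against 13.1%). Among all members the slope had a median of 0.0030, against 0.011 over all genes. Read against these shares, the counts are near those of genes in general, and 3 of the rising members (Gm2682, AI662270 and AW112010) stand on the list of lymphocyte and immune RNAs.

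Gm2682, an intergenic RNA on chromosome 15 that was listed among lymphocyte RNAs, had the steepest slope, 0.91 ± 0.053 (log2 per unit of score, SE) with a limma adjusted p of 6.8e-11. It was at 0.90 to 14.5 FPKM in the 12 libraries of the upper set, and at 0.051 to 1.15 FPKM in the 8 of the lower. AI662270, a processed transcript on chromosome 11, was at 3.18 to 11.4 FPKM in the upper set and 0.65 to 2.61 FPKM in the lower, without overlap. Ifi30 was at 22.7 to 48.6 FPKM in the upper set and 10.3 to 17.9 FPKM in the lower, also without overlap, with a slope of 0.42 ± 0.027 and an adjusted p of 3.3e-10. AU020206, whose neighbour Akap13 (an anchoring protein gene) rose too, with a slope of 0.21 ± 0.045, was at 5.47 to 26.1 FPKM against 4.48 to 10.4 FPKM. BE692007 was at 1.17 to 15.7 FPKM in the upper set and 0.34 to 2.06 FPKM in the lower, and lies opposite Ms4a6c, a membrane protein gene of myeloid cells, with 1088 bases in common. Ms4a6c itself had a slope of 0.30 ± 0.089, less steep than the 0.62 ± 0.094 of BE692007.

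**Figure D3:**
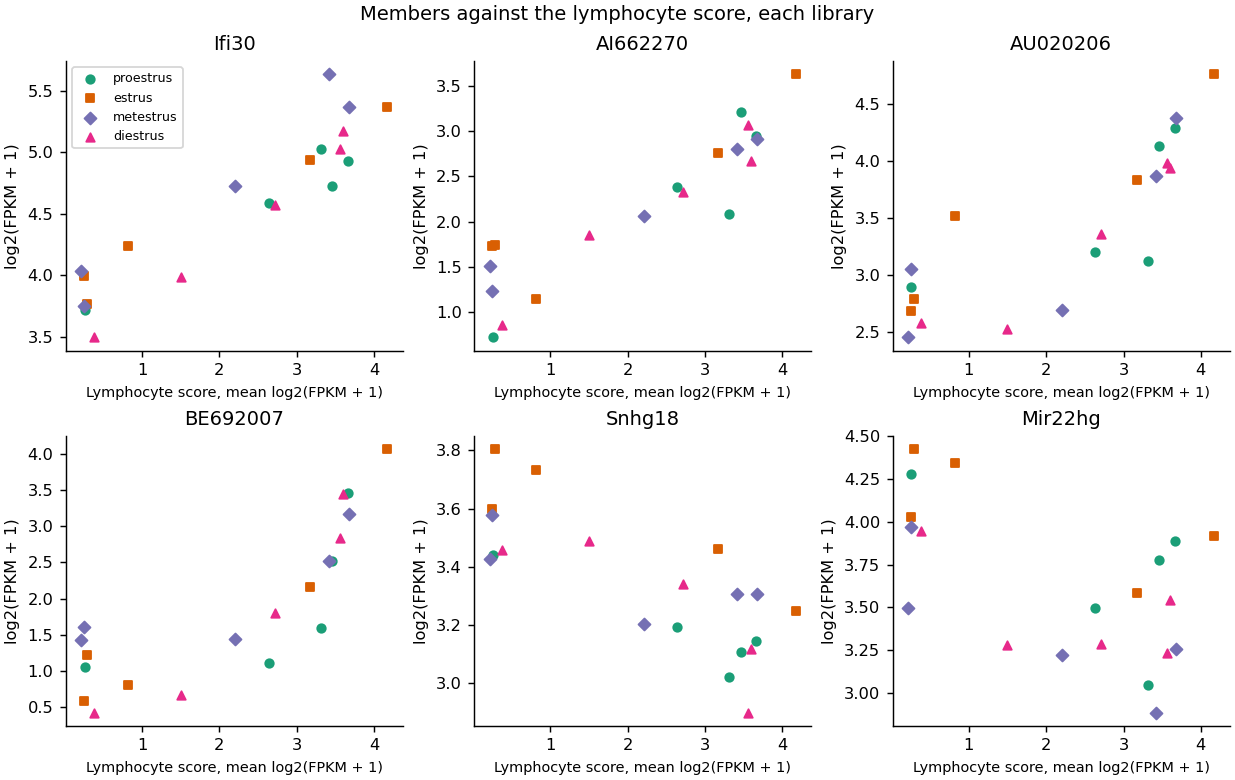
Levels of 6 members, as log2(FPKM + 1), against the lymphocyte score in each library, coloured by stage. Ifi30, AI662270, AU020206 and BE692007 rise with the score, while Snhg18 and Mir22hg fall and lie mostly higher in the 8 libraries of the lower set.

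Promoter sequences are shown for Ifi30, AU020206 and BE692007, because these members rose with the same score, also with a term for the sets of libraries. They come from RefSeq on build GRCm38.p6 and span 300 bases around the RefSeq start, mostly before it, on the strand of the gene. The BE692007 window lies inside the M21 gene (chr19:11470166-11484578, minus strand) and does not reach its M21 start. Capitals mark GGAAG, the core of the sites of ETS factors, on either strand, and the E-box CACGTG. The ETS core occurs in 71.4% and the E-box in 7.15% of all 32851 promoters of that table, so a match is only a description.
Ifi30 (chr8:70766614-70766913, minus strand): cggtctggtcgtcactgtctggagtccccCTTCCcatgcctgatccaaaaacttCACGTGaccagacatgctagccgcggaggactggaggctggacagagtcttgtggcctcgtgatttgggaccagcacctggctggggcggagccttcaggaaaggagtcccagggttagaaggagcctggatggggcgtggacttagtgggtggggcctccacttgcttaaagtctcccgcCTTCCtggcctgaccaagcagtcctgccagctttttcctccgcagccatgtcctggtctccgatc
AU020206 (chr7:75782071-75782370, minus strand): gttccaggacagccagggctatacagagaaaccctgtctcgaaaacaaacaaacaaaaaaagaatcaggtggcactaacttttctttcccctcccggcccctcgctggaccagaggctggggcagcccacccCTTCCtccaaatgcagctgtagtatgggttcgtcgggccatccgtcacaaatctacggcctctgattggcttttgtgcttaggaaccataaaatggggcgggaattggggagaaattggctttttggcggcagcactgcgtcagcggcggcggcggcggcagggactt
BE692007 (chr19:11482530-11482829, minus strand): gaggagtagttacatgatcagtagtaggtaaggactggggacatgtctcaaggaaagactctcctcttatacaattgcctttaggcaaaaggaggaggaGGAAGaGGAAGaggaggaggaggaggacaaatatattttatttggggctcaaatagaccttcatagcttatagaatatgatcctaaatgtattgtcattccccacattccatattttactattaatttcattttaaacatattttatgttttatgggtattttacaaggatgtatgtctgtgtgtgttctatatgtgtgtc
The Ifi30 window held GGAAG in 2 places and CACGTG in 1, the AU020206 window held GGAAG in 1 place, and the BE692007 window held it in 2. Of the 109 members, 56 had a promoter in the table.

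Other members rose as well. Gm10851, within the region of the glycolytic regulator gene Pfkfb3 on the opposite strand, rose with a slope of 0.17 ± 0.025, while Pfkfb3 fell with a slope of -0.26 ± 0.064. Gm45552, one of the members whose exons overlap another gene, rose by 0.43 ± 0.038 per unit of score. AW112010 rose by 0.15 ± 0.035, 2410006H16Rik by 0.21 ± 0.051, Gm10076 by 0.16 ± 0.037 and 9130221H12Rik by 0.10 ± 0.019. The remaining members that rose were Gm15674, Gm15675, 2810001G20Rik, Gm26917 and Gm43305. The calls of Gm26917 and Gm43305 (adjusted p of 0.0411 and 0.0422 by limma) held in 12 and 13 of 30 alternative settings, against 27 to 29 for the other 3. Gm15674 and Gm15675 overlap each other on opposite strands by 1087 bases beside the complement regulator gene Cd55, so they may hold the same reads.

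The 12 members that fell were Snhg18, Gm10687, Gm20632, Mir22hg, 9530082P21Rik, Gm15417, 2610016A17Rik, AC087871.1, Gm13375, AC122442.1, Peg13 and Gm17251. Snhg18, a small nucleolar RNA host that starts 148 bases from the axon guidance gene Sema5a, was at 6.46 to 10.004 FPKM in the upper set and at 9.74 to 12.96 FPKM in the lower, with a slope of -0.10 ± 0.021 and a limma adjusted p of 0.00074. Gm10687 starts 16 bases from Mcam, an adhesion molecule gene of vessels, and both fell, by -0.17 ± 0.035 and -0.27 ± 0.048 per unit. Likewise 2610016A17Rik (-0.15 ± 0.043) and its neighbour Dmrt2, a transcription factor gene (-0.25 ± 0.060), both fell. Peg13, an imprinted RNA within an intron of Trappc9, fell by 0.083 ± 0.027 at a mean of 13.2 FPKM.

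Mir22hg is the known host transcript of the microRNA miR-22. It was at 6.39 to 14.1 FPKM in the upper set and 8.72 to 20.5 FPKM in the lower, with a slope of -0.16 ± 0.043 and an adjusted p of 0.0070 by limma. Its hairpin is at chr11:75463716-75463810 on the plus strand of GRCm38.p6. The mature microRNAs are shown, with the seed (bases 2 to 8) in capitals, because they are the known product of this RNA:
miR-22-5p: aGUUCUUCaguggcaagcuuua
miR-22-3p: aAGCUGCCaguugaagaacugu
The arms have different seeds. The libraries measured the host transcript, so they give no level for either mature microRNA.

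With a term for the lower and upper set of libraries, which gives a common slope within the sets, 7 members rose (6.42%, against 9.77% of all genes) and 0 fell (against 0.365% of all genes). The 7 were Gm2682 (1.33, limma adjusted p = 2.7e-06), Gm45552 (0.57, 0.0032), Ifi30 (0.42, 0.0039), AU020206 (0.73, 0.0090), AI662270 (0.58, 0.0235), BE692007 (1.04, 0.0253) and Tug1 (0.29, 0.0449). Of these, 6 were among the 16, and Tug1, a widely expressed nuclear RNA, was not. Falling calls were few among all genes too under this term, so the count of 0 is no result about the members. The part of other cell types in the slopes of the 12 falling members was not tested.

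The lists of known long non-coding RNAs were chosen with earlier results of these data known, so their counts are only a description. Of all genes tested, 20.0% rose with the score and 9.36% fell. Of 8 tested lymphocyte and immune RNAs, 5 rose and 0 fell, with a median slope of 0.37, against 0.011 over all genes. Of 14 tested small nucleolar RNA hosts, 2 rose (Snhg15 and Gm12013, neither of them a member) and 1 fell (Snhg18). None of the 8 tested RNAs of the nuclear and chromatin list was called. Of 4 tested microRNA hosts 0 rose and 1 fell (Mir22hg), of 2 imprinted RNAs 0 rose and 1 fell (Peg13), of 4 RNAs linked to glucocorticoids, stress or the clock 0 rose and 1 fell (again Mir22hg), and of 2 developmental RNAs none was called. In the F test across stages 0 genes of any list were called, against 0.736% of all genes.

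A further pattern, chosen after the values were seen, was shared by several RNAs of the nuclear and chromatin list. It was not shared by all of them, nor by them alone. Malat1, an abundant RNA of nuclear speckles, was at 195, 146, 11.1, 11.9 and 79.0 FPKM in proestrus, at 26.9, 50.2, 85.2, 84.3 and 41.3 FPKM in estrus, at 10.4, 48.3, 55.9, 18.1 and 32.3 FPKM in metestrus and at 34.9, 19.5, 47.6, 42.3 and 24.5 FPKM in diestrus. Proestrus held the 2 highest libraries and, apart from metestrus-1, the 2 lowest, so the stages overlapped. Neat1, which builds the paraspeckle, ranged from 1.44 FPKM in metestrus-1, where Malat1 was lowest too, to 39.1 FPKM in estrus-4. Firre, an X-linked RNA that shapes nuclear organisation, ranged from 0.42 FPKM in proestrus-3 to 10.3 FPKM in estrus-4. Beside stage means, the slope on the log2(FPKM + 1) level of Malat1 was 0.83 ± 0.13 for Neat1 (log2 per log2, SE, limma adjusted p = 0.00038) and 0.69 ± 0.097 for Firre (0.00021).

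Of the 108 other members, 35 rose with Malat1 (32.4%, against 15.8% of all genes) and 0 fell (against 1.86% of all genes). After scaling the FPKM by median-ratio size factors, 22 rose (20.4%, against 8.46% of all genes) and 2 fell (1.85%, against 10.7% of all genes). The smallest p-values were those of Gm12940 (0.65 ± 0.080), 4932422M17Rik (0.57 ± 0.071), Gm17491 (0.55 ± 0.069), Gm16185 (0.47 ± 0.064), Firre, Gm42047 (0.57 ± 0.082) and Neat1. Gm12940 lies opposite Zmym1 (slope 0.13, not called) over 63.8% of its exons and shares 216 bases with Sfpq (0.26, called). AI480526 (0.44, called) lies opposite 61.5% of 4932422M17Rik, so reads of both members may be shared. Gm16185 and Gm17491 overlap the regions of Slc25a36 (0.23, called) and Slc20a2 (0.013, not called). Coding genes were among those that rose, such as Zbtb37 beside Gas5 (0.41, limma adjusted p = 0.00026). Of 7 tested RNAs of the nuclear and chromatin list, 5 rose with Malat1, namely Neat1, Firre, Tug1, Ftx and Airn. Xist and 2900097C17Rik (0.042, limma adjusted p = 0.302) were not called. The place of these RNAs in the cell was not measured, so 2900097C17Rik counts as nuclear by the list only. Of 14 small nucleolar RNA hosts 8 rose, among them Gas5 (0.23 ± 0.057), Snhg1 (0.35 ± 0.083) and Snhg5 (0.35 ± 0.087). The median slope was 0.26 for the first list and 0.19 for the second, against 0.039 over all genes. Measures of RNA quality per library were not used here, and their part in this pattern was not tested. Only Gm15674 and Gm15675 were called for both the Malat1 and the lymphocyte slope, against 33 members for Malat1 alone and 26 for the lymphocyte score alone.

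**Figure D4:**
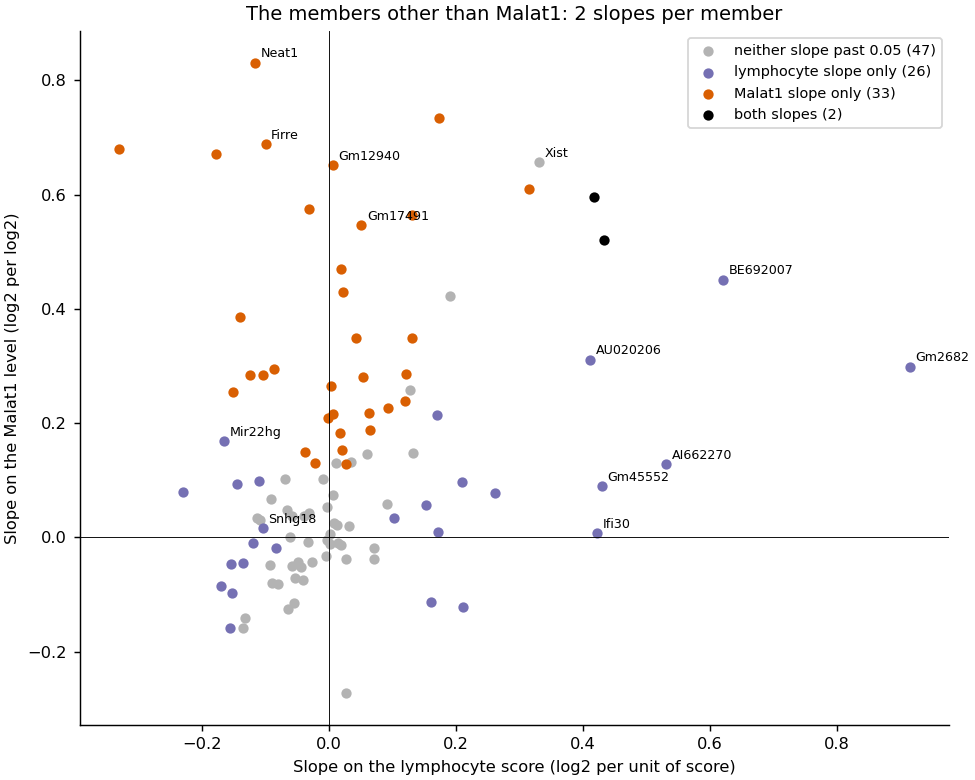
The slope of each of the 108 members other than Malat1 on the Malat1 level (vertical, log2 per log2) against its slope on the lymphocyte score (horizontal, log2 per unit of score). Colours give which slope passed an adjusted p of 0.05. By adjusted p, 33 members passed for Malat1 alone, 26 for the score alone and 2 for both. Some called for a single slope lie off the axes, such as Gm26532 (-0.33 on the score) and BE692007 (0.45 on Malat1).

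Xist, the RNA that coats and silences the inactive X chromosome in female cells, was at 0.0081 FPKM in estrus-4, against 6.93 to 88.3 FPKM in the other 19 libraries. This library was not low in Malat1 (84.3 FPKM), Neat1 or Firre, and its Firre level was the highest of the 20. The Y-linked gene Kdm5d was at most 0.0018 FPKM in any library, and in estrus-4 it was listed at 0. Of the X-linked genes that escape silencing, Eif2s3x was lowest in estrus-4, at 31.5 FPKM against 41.4 to 56.3 FPKM in the others, and so was Kdm5c, at 5.80 FPKM against 6.19 to 11.7 FPKM. Kdm6a, at 3.52 FPKM, and Ddx3x, at 88.2 FPKM, each had 4 libraries below that of estrus-4. The median of 436 X-linked genes, each set against its own median over the libraries, was 0.037 (log2) in estrus-4 and between -0.15 and 0.18 in the other 19. This median lay within the range of the other libraries, unlike Eif2s3x and Kdm5c. The cause of the low Xist was not tested.

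Over all 20 libraries the slope of Xist on Malat1 was 0.66 ± 0.29, with a limma adjusted p of 0.139. Without estrus-4 the slope was 0.85 with an adjusted p of 0.00031, so this library decided the call. The mean of Xist was 35.7 FPKM with it and 37.6 FPKM without it.

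**Figure D5:**
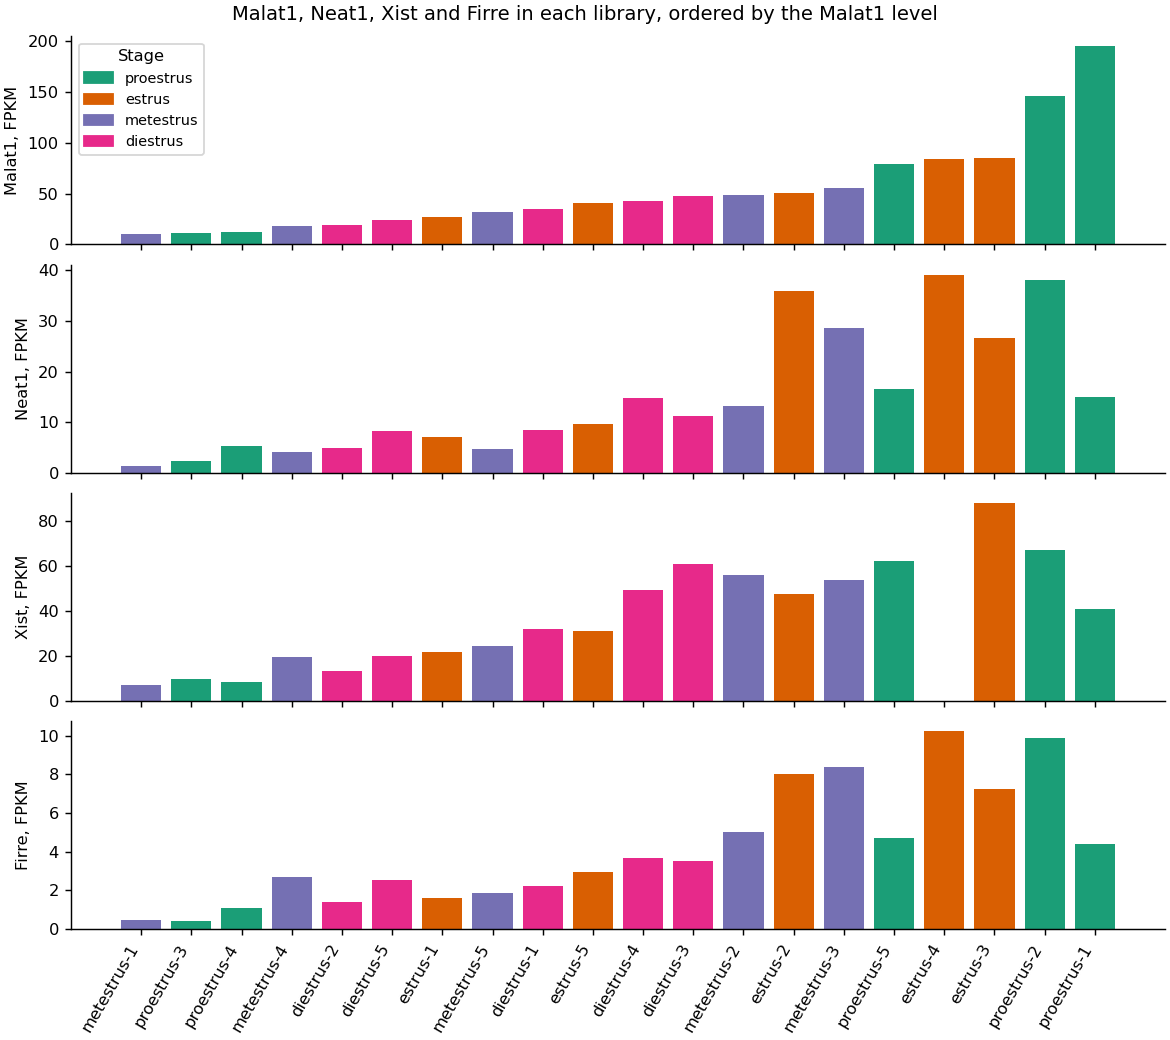
FPKM of Malat1, Neat1, Xist and Firre (top to bottom) in each of the 20 libraries, ordered by the Malat1 level and coloured by stage. Neat1, Firre and, apart from estrus-4 at 0.0081 FPKM, Xist are low where Malat1 is low, and libraries of all 4 stages are spread along the order.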

How the data were processed

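RNA of inguinal fat was enriched for polyadenylated transcripts with oligo(dT) beads and sequenced in 20 libraries, which selects against RNAs without a poly(A) tail. Per the labels and the methods, the authors trimmed the reads, checked them with FastQC 0.11.5, aligned them to GRCm38 with STAR 2.5.3a and counted reads per gene. The submitters' notes also name StringTie 1.3.1c. The deposited values are FPKM, already scaled by the authors to library size and transcript length, which keep no counts, and no library depth was used. FPKM of genes on opposite strands may share reads.

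Members and lists were chosen with earlier results of these data known. The 13987 genes that reached 1 FPKM in 5 or more libraries, all 109 members included, were tested on log2(FPKM + 1) with limma 3.58.1 in R 4.3.3, with a trend in the prior variance, over all 20 libraries. Fold changes on this scale understate changes of low genes. Contrasts are the later stage minus the earlier one, and proestrus minus diestrus. Slopes were fitted beside stage means, and p-values were adjusted over all genes by Benjamini-Hochberg at 0.05. The model was tested on simulated data. Alternatives were a pseudocount of 0.1, other filters, size factors, array weights, a replicate block, fewer libraries and other scores. The Malat1 slope and its alternatives were added after the values were seen. Named members are the 12 highest in mean, the 10 smallest p-values in each direction of the lymphocyte slope, and list members. As no member was called by stage, those with a small unadjusted F p were described. Gene positions are from GENCODE M21, 1-based. Libraries are numbered as in the labels.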

Additional observations from a re-analysis of the deposited data

Results flagged for a closer look

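Among 172 groups of 5 libraries, 2 held a library far from the other 4, and chance gives about 1 in 20. Gm10687 was at 2.49 FPKM in estrus-3, against 5.003 to 6.10 FPKM in the other estrus libraries, and this library had the highest lymphocyte score of all. Gm13375 was at 6.79 FPKM in estrus-1, against 2.54 to 3.33 FPKM in the other estrus libraries.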

How the results depend on the processing

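No direction of a reported result reversed in any alternative run. Members differing among the 4 stages numbered 4 with array weights (3.67%, against 5.48% of all genes), 1 without proestrus-2 and metestrus-3 (0.917%, against 1.37% of all genes), and 0 to 2 on leaving out single libraries, with 36 to 184 of all genes called. Leaving both of these out gave 1 member in metestrus against estrus (0.318% of all genes), and 1 falling with Malat1 (2.37% of all genes). Array weights gave 1 member in metestrus against estrus (1.18% of all genes), 8 in diestrus against metestrus (7.4%), 21 falling with the lymphocyte score (11.4%) and 4 falling with Malat1 (6.74%). Diestrus against metestrus gave 5 members with the lymphocyte score as a covariate (2.89% of all genes). Within the 10 libraries of a pair alone, AC156572.2 passed in diestrus against metestrus (1.51, limma adjusted p = 0.0277). AC154502.3 passed likewise in estrus against proestrus (-0.97, 0.0367). The share of all genes called in these fits is not given here, so both calls are no result about the members as a set. A term for the gap of the score left 7 rising (9.77% of all genes) and 0 falling (0.365%). Size factors gave 22 rising (8.46% of all genes) and 2 falling (10.7%) with Malat1, and the lymphocyte score beside Malat1 gave 2 falling (2.95%). The cause was not tested.

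Leaving out each library in turn gave 0 to 1 members in estrus against proestrus (11 to 46 of all genes) and in metestrus against estrus (9 to 56). It gave 0 to 2 in diestrus against metestrus (43 to 276 of all genes). No member was called in metestrus against proestrus (53 to 329 of all genes), proestrus against diestrus (0 to 4) or diestrus against estrus (0 to 6). In the same runs 12 to 17 members rose with the lymphocyte score (2243 to 3170 of all genes) and 9 to 17 fell (775 to 1311). With Malat1, 27 to 37 members rose (1462 to 2863 of all genes) and 0 to 1 fell (67 to 426). Single libraries that gave a stage call were metestrus-3, proestrus-5 and diestrus-3 (9630013D21Rik, diestrus against metestrus, limma adjusted p = 0.0386). Without proestrus-5, B430219N15Rik and AC156572.2 passed in the same pair (adjusted p = 0.0485 and 0.0487). Proestrus-5 is in neither stage of that pair, so their differences were unchanged. Libraries with the same number did not deviate together (mean correlation -0.078 over 30 pairs, 10 pairs over 0.1). A replicate block gave 0 members by stage, where the F test called 47 of all 13987 genes. With the lymphocyte score 14 members rose (2454 of all genes) and 10 fell (982) under this block. With Malat1, 32 members rose and 0 fell under this block. The share of all genes for the Malat1 slope under the block is not given here, so these counts have no like share beside them.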

Other observations

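Gm26532 was the member with the widest range after Xist and Gm2682, from 0.13 FPKM in metestrus-1 to 11.5 FPKM in estrus-2. It rose with Malat1 with a slope of 0.68 ± 0.19 (log2 per log2, SE, limma adjusted p = 0.0203). At the other end, 11 members differed by less than 2-fold between their highest and lowest library, among them Brip1os, at 5.39 to 8.12 FPKM. Bc1, a short RNA known from rodent neurons (chr7:144914470-144914637, plus strand), was at 3.89 to 16.9 FPKM, lowest in estrus-3. These were chosen after their values were seen.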
